A study of Mus musculus with 42 samples.

Results

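The genes described here are 49 genes of ribosome biogenesis and the nucleolus. They were chosen by name from proteins of the nucleolus, of ribosomal RNA processing and of transcription by RNA polymerase I, and mouse Ensembl identifiers were matched to these symbols. All 49 were found among the 55487 genes of the count tables, and all 49 passed the filter on low counts in mRNA, in ribosome footprints and in the ratio of footprints to mRNA. The study fed mice with leukaemia either standard amino acids or a diet that lacked valine, leucine and isoleucine, the branched-chain amino acids (BCAA), and treated some of each with chemotherapy. Viable cells carrying green fluorescent protein (GFP) were sorted from the marrow of 21 mice. From each mouse mRNA was sequenced by Smart-seq2, which copies whole transcripts, and so were ribosome footprints, short RNA fragments left after nuclease digestion because a ribosome sat on them.

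The 4 groups were a standard amino acid (AA) diet with vehicle (5 mice), the AA diet with 5+3 (4 mice), the BCAA-free diet with vehicle (5 mice) and the BCAA-free diet with 5+3 (7 mice). Treatment called 5+3 was 5 daily doses of cytarabine (100 mg/kg), the first 3 of them joined by doxorubicin (3 mg/kg). Vehicle was phosphate-buffered saline. All recipients were wild-type male mice of 8 to 10 weeks that received the cells by vein with no preconditioning, and so kept their own blood cells. All the leukaemia cells carried the MLL-AF9 fusion oncogene, GFP driven by ubiquitin sequences and luciferase driven by the β-actin promoter. They came from 1 terminally ill mouse and were grown in culture with SCF, IL-3 and IL-6 before transplantation, so the 21 recipients share 1 source of leukaemia. Cells were collected at the time of maximal response.

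Ribosome biogenesis begins in the nucleolus, where RNA polymerase I transcribes ribosomal DNA into a long precursor RNA. Small nucleolar ribonucleoproteins (snoRNPs) guide its methylation and pseudouridylation, the small subunit processome folds and cleaves its 5′ part, and a separate series of factors builds the large subunit. Growth signals through MYC and mTORC1 drive this pathway, and proliferating blood progenitors and leukaemia cells are known for large nucleoli and a high demand for new ribosomes.

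Upstream sequences are shown for the 3 genes whose footprint response to 5+3 differed between the diets (Ncl, Nhp2 and Wdr12) and for Rrn3, which rose in both mRNA and footprints and whose upstream region held more than 1 E-box. Each line gives the 250 bases before the transcription start, 5′ to 3′ in the direction of transcription, from RefSeq on build GRCm38.p6. Ncl lies on the minus strand (chr1:86359456-86359705), Nhp2 on the plus strand (chr11:51619523-51619772), Wdr12 on the minus strand (chr1:60098501-60098750) and Rrn3 on the plus strand (chr16:13780449-13780698). Capitals mark CACGTG, the E-box letters bound by MYC and MAX, which read the same on both strands.
Ncl: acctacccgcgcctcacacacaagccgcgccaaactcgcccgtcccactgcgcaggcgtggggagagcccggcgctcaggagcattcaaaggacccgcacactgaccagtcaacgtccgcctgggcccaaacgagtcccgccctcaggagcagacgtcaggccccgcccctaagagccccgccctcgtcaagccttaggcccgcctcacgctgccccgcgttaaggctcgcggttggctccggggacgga
Nhp2: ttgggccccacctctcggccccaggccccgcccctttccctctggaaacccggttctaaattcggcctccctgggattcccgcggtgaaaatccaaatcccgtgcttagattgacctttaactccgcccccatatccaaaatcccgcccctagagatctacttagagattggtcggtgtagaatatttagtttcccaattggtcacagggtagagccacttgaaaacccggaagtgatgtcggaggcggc
Wdr12: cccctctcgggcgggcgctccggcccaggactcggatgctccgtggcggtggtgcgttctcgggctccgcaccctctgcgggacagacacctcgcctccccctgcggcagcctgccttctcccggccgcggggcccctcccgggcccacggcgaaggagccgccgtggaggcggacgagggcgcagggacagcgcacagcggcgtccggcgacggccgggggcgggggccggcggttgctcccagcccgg
Rrn3: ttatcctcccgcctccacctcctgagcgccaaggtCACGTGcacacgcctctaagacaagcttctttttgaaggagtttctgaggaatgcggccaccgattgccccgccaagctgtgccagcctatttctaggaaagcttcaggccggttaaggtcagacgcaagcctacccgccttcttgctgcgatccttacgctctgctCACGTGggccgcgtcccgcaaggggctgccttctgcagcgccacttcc
Ncl, Nhp2 and Wdr12 held no CACGTG in these windows, and Rrn3 held it 215 and 48 bases before its start. Upstream sequences matched 42 of the 49 genes, and 4 of them (9.52%) held CACGTG: Rrn3, Imp4 (121 bases before the start), Nop2 (60 bases) and Utp18 (20 bases). Among all 27025 genes with such a sequence 6.86% held it. A transcript that begins with C followed by 4 pyrimidines, the start typical of ribosomal protein mRNAs, was found for 0 of the 42 genes and for 3.01% of all genes. These matches describe the letters of the annotated windows only. The 7 genes with no sequence in this source were Npm1, Fbl, Utp6, Rrp12, Bop1, Rrs1 and Gnl2.

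Total gene counts were 30996200 to 70437713 in the mRNA libraries and 2697092 to 8863472 in the footprint libraries. The smallest count of a member in a single library was 212 in mRNA and 33 in footprints. Levels are CPM, counts scaled to a common library size, log2 changes come from edgeR's quasi-likelihood test over all genes, and a gene passed at an adjusted p under 0.05. Mice of the AA vehicle group carry a suffix B in their names that no other group has. If it marks a batch, that batch and the group cannot be told apart. The mRNA libraries of 4 mice had the fewest genes detected, 20195 to 22264, against 23619 to 34675 in the others. These were BCAA-free vehicle replicates 1, 2 and 5 and BCAA-free 5+3 replicate 7. Counts below are also given without these 4 mice, which leaves 2 BCAA-free vehicle mice. The most genes were detected in AA 5+3 replicates 1, 2 and 3 (32895, 34471 and 34675) and BCAA-free vehicle replicate 3 (33323), which were kept. Pseudogene rows took 20.5% to 28.2% of footprint counts and 0.253% to 0.538% of mRNA counts, so footprints of genes with near-identical copies, such as Npm1 and Fbl, are uncertain as to the copy. The genes read as markers of these leukaemia cells (Hoxa9, Hoxa10, Hoxa7, Meis1, Myb, Kit and Ptprc) were detected in every group, with summed footprints of 590 to 814 CPM over all mice. Their detection alone does not identify the sorted cells as leukaemic.

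Together the 49 genes took a larger share of the counts on the BCAA-free diet with 5+3 than in the other groups. The footprint share of AA vehicle mice was 0.515% ± 0.0391 (SD, n = 5) and that of AA 5+3 mice 0.519% ± 0.0240 (n = 4). BCAA-free mice had 0.495% ± 0.0222 (n = 5) under vehicle and 0.639% ± 0.0710 (n = 7) under 5+3. The 7 mice of the last group ranged from 0.547% to 0.744%, above all BCAA-free vehicle mice, whose highest share was 0.528%, while the highest AA vehicle mouse reached 0.557%. In mRNA the shares were 0.708% ± 0.0409, 0.714% ± 0.0420, 0.712% ± 0.0474 and 0.913% ± 0.109 in the same order. Here the groups overlapped, as the lowest BCAA-free 5+3 mouse stood at 0.747% and the highest BCAA-free vehicle mouse at 0.788%. Without Ncl and Npm1, the footprint shares were 0.330%, 0.339%, 0.324% and 0.382%. In bulk samples such as these, fewer cells of a type and less RNA per cell cannot be told apart.

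**Figure D1:**
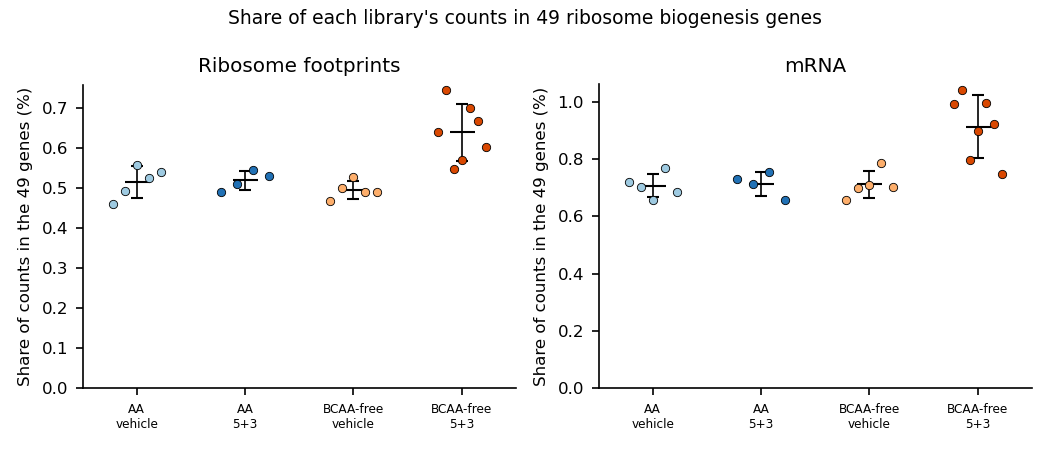
Share of each library's gene counts, in percent, that fell in the 49 ribosome biogenesis genes, for footprints (left) and mRNA (right), by diet and treatment. Each point is a mouse, and bars give the mean ± SD. The footprint points of the BCAA-free 5+3 group run from 0.547% to 0.744%, and those of the BCAA-free vehicle group end at 0.528%.

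On the BCAA-free diet, chemotherapy raised the footprints of 15 of the 49 genes and lowered none. The box H/ACA protein Nhp2 (log2 change 0.59), nucleolin (Ncl, 0.57), nucleophosmin (Npm1, 0.55) and the rRNA acetyltransferase Nat10 (0.55) rose most. Of all 15723 genes tested in footprints 20.6% passed in this comparison, 8.76% higher and 11.9% lower. The median log2 change was 0.19 over the 49 genes and -0.02 over all genes, and 45 of the 49 values were positive, against 47.7% of all genes. For 9 members (Ncl, Npm1, Nolc1, Mybbp1a, Ddx21, Nhp2, Nat10, Pes1 and Wdr12) each treated mouse lay above each vehicle mouse, as was so for 3.32% of all genes. Without the 4 mice 4 genes passed (Ncl, Nolc1, Nhp2 and Nat10), and the median was 0.23.

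Chemotherapy on the same diet raised the mRNA of 14 of the 49 genes and lowered that of 1, Imp3. Of all 21114 genes tested in mRNA 8.56% passed, 4.33% higher and 4.23% lower. The median log2 change was 0.45 over the 49 genes and -0.01 over all genes, with 37 values positive, against 49.7% of all genes. The groups did not overlap for Ncl, Utp4 and Wdr12, which were higher, and Imp3, which was lower. Of all genes 1.6% were higher and 1.22% lower without overlap. Without the 4 mice 0 genes passed in edgeR, at a median of 0.42, and Ncl had a log2 change of 0.84 (adjusted p = 0.233). The count fell to 4 without BCAA-free 5+3 replicate 5 and was 21 without replicate 7. It was 5 to 9 without BCAA-free vehicle replicate 1, 2, 3 or 5 or BCAA-free 5+3 replicate 1, 2 or 4. The calls of Ncl, Mybbp1a, Wdr43 and Utp4 held in all 12 fits that left out 1 mouse. Dkc1 lost its call in 2 of these fits, Pes1, Wdr12 and Imp4 each in 5 and Imp3 in 6. Ltv1 and Rrn3 each lost theirs in 7, Rrp1 in 8, and Nob1, Nolc1 and Utp15 each in 9.

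On the AA diet the same treatment raised the footprints of 2 of the 49 genes, Noc4l and Utp6, where 6.61% of all genes passed (3.49% higher and 3.12% lower). This count of higher genes is near the share of all genes. The median was 0.10 over the 49 genes and -0.02 over all genes, with 36 values positive, against 47.4% of all genes. After Noc4l, the highest value was that of Bop1 (0.40, not called), and the lowest were those of Gar1 (-0.15) and Mphosph10 (-0.13). Without the 4 mice, all of them from other groups that share the estimate of spread, 1 passed. Without AA vehicle replicate 2 the count was 4, without AA 5+3 replicate 3 it was 0, and without any other single mouse of these groups it was 1. In mRNA 0 of the 49 passed in edgeR, 0 had an unadjusted p under 0.05 and 0 passed in DESeq2, where 0.0616% of all genes passed in edgeR (0.0189% higher and 0.0426% lower). The median there was -0.03, with Nop10 highest (0.40) and Nop2 lowest (-0.43).

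**Figure D2:**
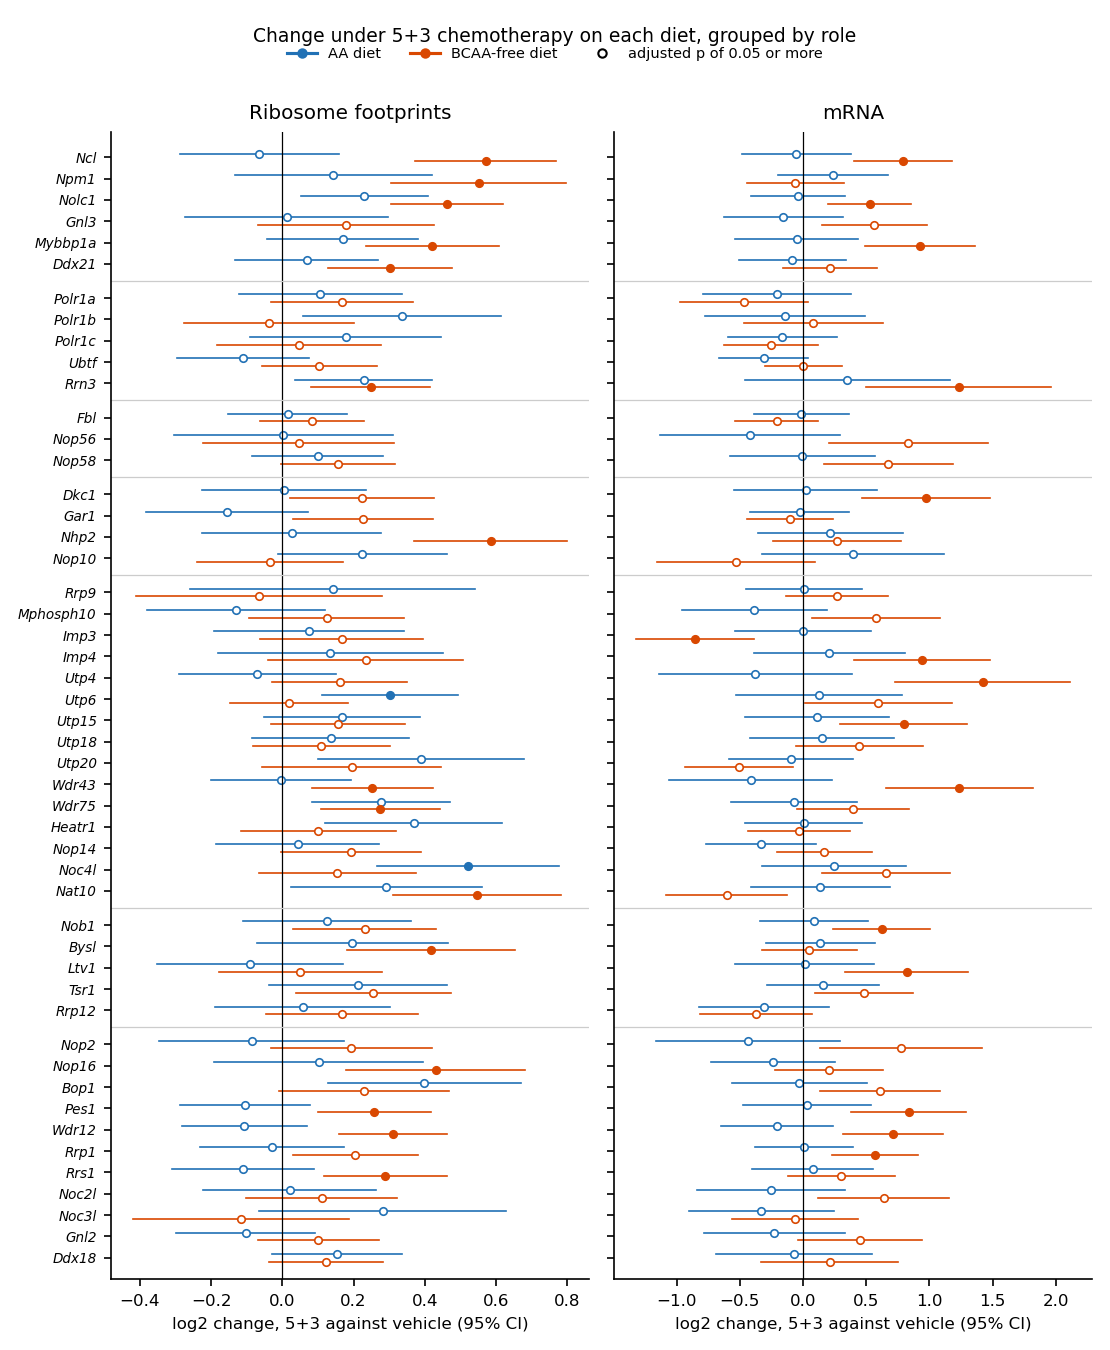
Log2 change under 5+3 against vehicle of each of the 49 genes in footprints (left) and mRNA (right), on the AA diet (blue) and the BCAA-free diet (orange), grouped by role. Lines are 95% confidence intervals and filled points passed at an adjusted p under 0.05; 15 orange points are filled in footprints and 15 in mRNA, against 2 and 0 blue points.

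Summed erythroid and neutrophil markers fell under 5+3 on the BCAA-free diet, while the share of counts in the 49 genes rose. In mRNA the summed level of 11 erythroid markers was 82.2 to 140 CPM in BCAA-free vehicle mice and 4.12 to 29.5 CPM with 5+3, and that of 10 neutrophil markers was 3688 to 4822 CPM and 279 to 2622 CPM. In footprints erythroid markers summed to 118 to 220 CPM and 9.34 to 46.8 CPM, and neutrophil markers to 901 to 1502 CPM and 125 to 1256 CPM. Of the neutrophil markers 9 of 10 fell in each kind, of the erythroid markers 5 of 7 fell in footprints and 6 of 11 in mRNA, and of the monocyte and macrophage markers 6 of 9 and 4 of 10 fell. With vehicle and with 5+3 on this diet, median sums of B cell markers were 56.1 and 59.5 CPM in mRNA and 17.9 and 12.3 CPM in footprints. Those of T and NK cells were 95.2 and 83.7 CPM in mRNA and 9.29 and 5.37 CPM in footprints. Megakaryocyte and platelet markers had 5.55 and 4.51 CPM, and 5.17 and 3.80 CPM. Endothelium and stroma had 106 and 112 CPM, and 116.4 and 115.6 CPM. Of the 7 leukaemia markers Kit (-0.67) and Myb (-0.33) fell in footprints. In AA mice the summed erythroid level in mRNA was 17.5 to 36.5 CPM with vehicle and 37.0 to 170 CPM with 5+3, though 0 of 11 erythroid markers passed in edgeR and 6 had an unadjusted p under 0.05. Under 5+3 on the AA diet, 7 of 9 monocyte and macrophage markers and 1 of 10 neutrophil markers fell in footprints. Cd3e, a marker of T cells, was at 0 footprint counts in the AA vehicle group, and Cdh5, a marker of endothelium, in the AA 5+3 group. Which cells expressed these markers was not tested, nor was their part in the changes of the 49 genes.

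The organisers and chaperones of the nucleolus held the largest share of called genes. Of these 6 genes 5 rose in footprints on the BCAA-free diet under 5+3 (median 0.44) and 3 in mRNA (median 0.54). Nucleolin (Ncl, chr1:86344719-86359455), an abundant RNA-binding protein that opens ribosomal DNA chromatin and binds precursor rRNA, had footprint levels of 1110, 1049, 1221, 1039 and 1117 CPM in the BCAA-free vehicle mice. Its 7 BCAA-free 5+3 mice ranged from 1394 to 2019 CPM with a median of 1582. The AA vehicle mice had 1116, 1236, 1423, 1163 and 1184 CPM and the AA 5+3 mice 1079, 1181, 1256 and 1169 CPM. The BCAA-free 5+3 mice were thus above all mice of the same diet and of the same treatment, and they met 1 AA vehicle mouse. The rise on the BCAA-free diet was 0.57 (SE 0.096, adjusted p = 0.000273), and on the AA diet the log2 change was -0.06. In mRNA Ncl stood at 565, 607, 621, 584 and 495 CPM with vehicle on the BCAA-free diet and at 703 to 1277 CPM (median 1058) with 5+3, a rise of 0.79 (SE 0.187, adjusted p = 0.0171).

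Npm1 (chr11:33152498-33164142), the nucleolar histone and ribosome chaperone nucleophosmin, had 564, 652, 675, 581 and 589 footprint CPM with vehicle on the BCAA-free diet and 714 to 1182 CPM (median 851) with 5+3. These groups did not overlap, and the rise was 0.55 (SE 0.119, adjusted p = 0.00238). Its mRNA levels were 897, 910.1, 770.5, 706 and 693 CPM with vehicle and 588 to 951 CPM with 5+3, with a log2 change of -0.06 that did not pass. The footprint rise of Npm1 was thus not matched in its mRNA, and its footprints may include those of its copies.

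Nolc1, a chaperone that carries snoRNPs between the nucleolus and Cajal bodies, had 121, 119, 126, 134 and 119 footprint CPM with vehicle and 149 to 196 CPM (median 175) with 5+3 on the BCAA-free diet. It rose by 0.46 in footprints (SE 0.077, adjusted p = 0.000241) and by 0.53 in mRNA (adjusted p = 0.0429). On the AA diet its footprints also did not overlap between vehicle (125, 133, 120.0, 121 and 133 CPM) and 5+3 (144, 137, 159.8 and 151 CPM), with a log2 change of 0.23 that did not pass over all genes. Nolc1 footprints were thus higher with 5+3 on both diets, and its interaction of 0.23 did not pass. Mybbp1a, a nucleolar protein that binds RNA polymerase I and p53, had 257, 280.2, 265, 255 and 259 footprint CPM with vehicle on the BCAA-free diet and 312 to 410.3 CPM with 5+3. It rose by 0.42 in footprints (adjusted p = 0.00237) and 0.93 in mRNA (adjusted p = 0.0141). Ddx21, the RNA helicase that couples RNA polymerase I transcription to rRNA processing, rose by 0.30 in footprints (adjusted p = 0.0142), while its mRNA changed by 0.21 and did not pass. Gnl3 (nucleostemin), a GTP-binding protein of stem and tumour cell nucleoli, had log2 changes of 0.18 in footprints and 0.56 in mRNA that did not pass.

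**Figure D3:**
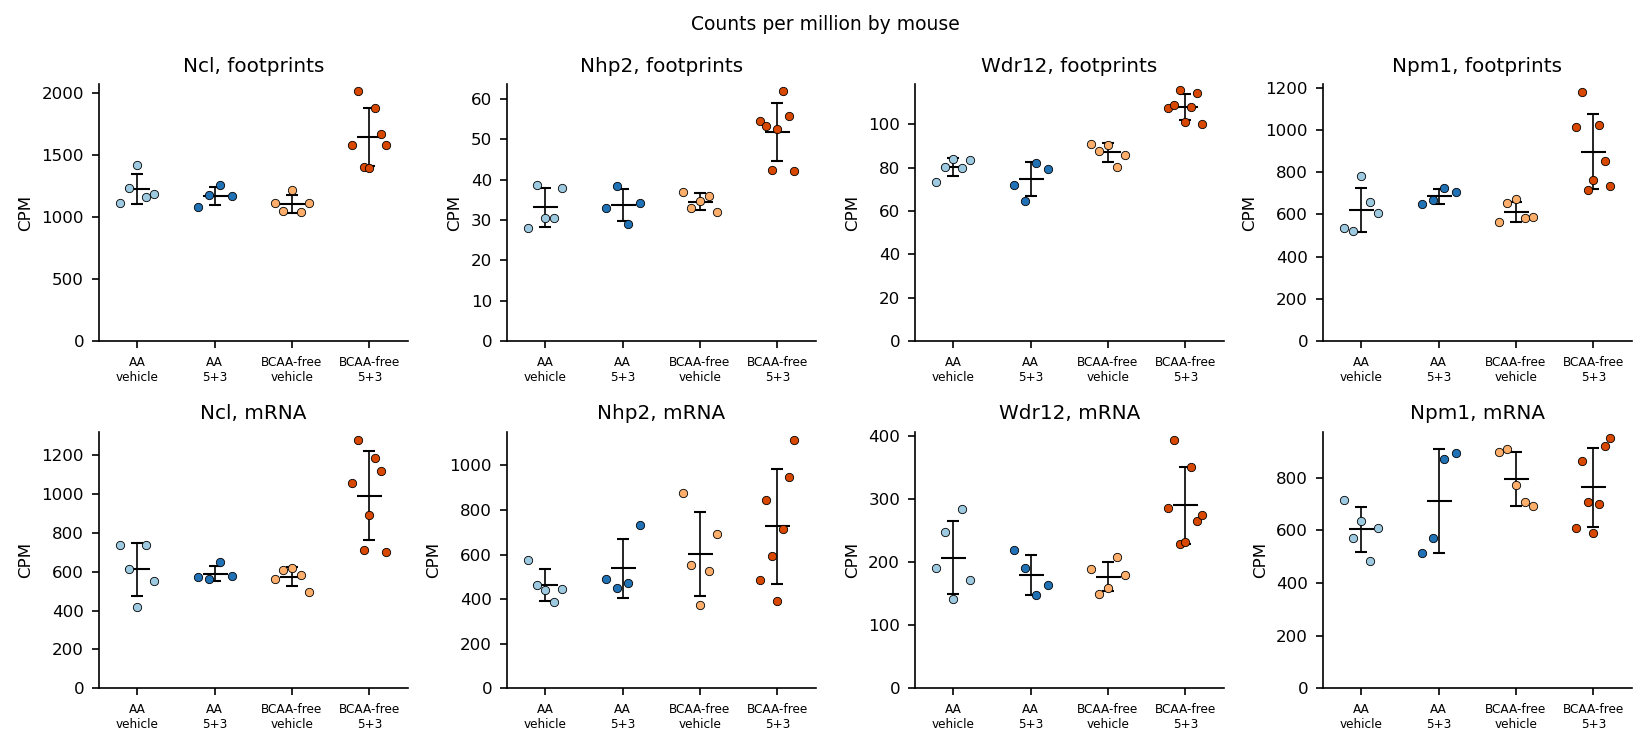
Footprint (top) and mRNA (bottom) levels, in CPM, of Ncl, Nhp2, Wdr12 and Npm1 in each mouse by diet and treatment. Points are mice and bars the mean ± SD. In footprints all 7 BCAA-free 5+3 mice lie above the BCAA-free vehicle mice for the 4 genes, and in mRNA this holds for Ncl and Wdr12.

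Of the 5 genes of RNA polymerase I only Rrn3 passed on the BCAA-free diet, and the medians were 0.10 in footprints and 0.00 in mRNA. Rrn3 (TIF-IA; chr16:13780699-13814841), the growth-regulated factor that makes RNA polymerase I competent to start, had 33.2, 36.1, 29.4, 36.1 and 34.7 footprint CPM with vehicle and 36.0 to 44.8 CPM (median 40.5) with 5+3. Its rise was 0.25 (SE 0.081, adjusted p = 0.0311), and the call was lost in 3 of the 12 fits that left out 1 mouse, those without BCAA-free vehicle replicate 1 or 3 or BCAA-free 5+3 replicate 4. Its BCAA-free vehicle and 5+3 mice overlapped. On the AA diet Rrn3 footprints did not overlap, with 32.0, 31.8, 30.4, 36.0 and 34.5 CPM in vehicle mice and 38.8, 37.1, 41.4 and 37.7 CPM in treated mice. The log2 change there was 0.23 and did not pass, so Rrn3 footprints had nearly the same change on both diets. Rrn3 mRNA was 21.7, 28.0, 26.9, 22.4 and 5.57 CPM with vehicle on the BCAA-free diet and 24.7 to 69.6 CPM (median 54.5) with 5+3, a rise of 1.23 (SE 0.355, adjusted p = 0.0358). The value of 5.57 CPM belongs to replicate 5, 1 of the 4 mice with the fewest genes detected in mRNA. The mRNA call was lost without this mouse and in 7 of the 12 fits in all. The catalytic subunits Polr1a and Polr1b, the shared subunit Polr1c and the promoter factor Ubtf had footprint changes of 0.17, -0.04, 0.05 and 0.10 and mRNA changes of -0.46, 0.08, -0.25 and 0.00, none of which passed.

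Of the box C/D proteins, which place 2′-O-methyl groups on rRNA, 0 of 3 passed in edgeR in either kind of library, and 0 had an unadjusted p under 0.05 in footprints and 2 in mRNA. DESeq2 called the same 15 members as edgeR in footprints, none of these 3, and had Nop56 among its 18 in mRNA. The methyltransferase Fbl and its partners Nop56 and Nop58 had footprint changes of 0.08, 0.05 and 0.16. Their mRNA changes were -0.21, 0.83 and 0.67, and Nop56 mRNA spread from 149.5 to 402 CPM with vehicle and from 230.0 to 872 CPM with 5+3.

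Among the box H/ACA proteins, which make pseudouridine and also stabilise telomerase RNA, Nhp2 rose in footprints and Dkc1 in mRNA. Nhp2 (chr11:51619773-51623718) had 37.0, 33.1, 34.7, 35.9 and 31.9 footprint CPM with vehicle on the BCAA-free diet and 42.2 to 61.8 CPM (median 53.3) with 5+3. On the AA diet it had 28.0, 38.6, 30.4, 30.6 and 38.0 CPM with vehicle and 33.0, 38.4, 28.9 and 34.2 CPM with 5+3. The 7 BCAA-free 5+3 mice were above the 14 mice of the other groups. The rise of Nhp2 on the BCAA-free diet was 0.59 (SE 0.105, adjusted p = 0.000504), the largest footprint change of the 49 genes, against a log2 change of 0.03 on the AA diet. Its mRNA changed by 0.27 and did not pass. Dkc1 (dyskerin, the pseudouridine synthase) rose by 0.97 in mRNA (SE 0.244, adjusted p = 0.0221), from 127 to 176 CPM with vehicle to 143 to 446 CPM with 5+3, groups that overlapped. Its footprint change was 0.22, that of Gar1 0.23 and that of Nop10 -0.03, and none passed.

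The small subunit processome, with 15 of the 49 genes, had 3 genes higher in footprints (Nat10, Wdr43 and Wdr75; median 0.16) and 4 higher and 1 lower in mRNA (median 0.44) under 5+3 on the BCAA-free diet. Utp4, a subunit of the UTP-A complex that starts processome assembly, had 33.4, 48.9, 38.9, 51.8 and 33.0 mRNA CPM with vehicle and 53.4 to 182 CPM (median 107) with 5+3. The groups did not overlap, and its rise of 1.42 (SE 0.335, adjusted p = 0.0171) was the largest mRNA change of the 49 genes. Utp4 footprints changed by 0.16 and did not pass. Wdr43, also of UTP-A, rose by 1.24 in mRNA (adjusted p = 0.0146) and 0.25 in footprints (adjusted p = 0.0315), and the footprint call was lost without BCAA-free vehicle replicate 4 or 5. Its partner Utp15 rose by 0.80 in mRNA (adjusted p = 0.0454), and Wdr75 rose by 0.28 in footprints (adjusted p = 0.0188).

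Imp3 and Imp4 bind the U3 snoRNA side by side, yet their mRNA went opposite ways. Imp3 mRNA fell from 168, 127, 103, 115 and 142 CPM with vehicle to 53.04 to 100.1 CPM (median 64.8) with 5+3 on the BCAA-free diet. These groups did not overlap, and the log2 change was -0.86 (SE 0.225, adjusted p = 0.0262). Imp4 mRNA rose by 0.94 (SE 0.259, adjusted p = 0.0307), from 62.3 to 115 CPM with vehicle to 98.5 to 281 CPM with 5+3. The mRNA calls of Imp3 and Imp4 were lost in 6 and 5 of the 12 fits that left out 1 mouse. In footprints both had small changes of 0.17 and 0.23 that did not pass. Nat10, the acetyltransferase of 18S rRNA, had 45.1, 45.3, 39.3, 41.2 and 44.0 footprint CPM with vehicle on the BCAA-free diet and 47.6 to 73.5 CPM (median 59.7) with 5+3. Its footprints rose by 0.55 (SE 0.115, adjusted p = 0.00192), while its mRNA had a log2 change of -0.61 that did not pass.

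On the AA diet the 2 genes called in footprints were both among the 15 of the processome, a count near the 3.49% of all genes called higher. Noc4l, the partner of Nop14 in 40S export, had 30.8, 33.7, 23.2, 24.8 and 24.0 CPM with vehicle and 40.6, 38.0, 43.3 and 33.1 CPM with 5+3. The groups met at 1 mouse each, and the rise was 0.52 (SE 0.125, adjusted p = 0.0122). Utp6 had 72.2, 76.4, 73.5, 68.1 and 71.9 CPM with vehicle and 85.2, 91.6, 89.9 and 90.0 CPM with 5+3, a rise of 0.30 (SE 0.093, adjusted p = 0.0484). The Utp6 groups did not overlap, yet its call was lost in 8 of 9 fits that left out 1 mouse, all but that without AA vehicle replicate 2. Groups also did not overlap for Nolc1, Polr1c, Rrn3, Wdr75, Heatr1 and Bop1, which were higher with 5+3 on the AA diet and did not pass over all genes. Of all genes 5.76% were higher without overlap in this comparison. On the BCAA-free diet the footprint changes of Noc4l and Utp6 were 0.15 and 0.02.

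Of 5 late small subunit factors, which act as the 40S precursor leaves the nucleus, Bysl rose in footprints by 0.42 (adjusted p = 0.0123). Nob1, the nuclease that makes the 3′ end of 18S rRNA, rose by 0.62 in mRNA (adjusted p = 0.0399), and Ltv1, an export adaptor, rose by 0.82 (adjusted p = 0.0352). These 2 mRNA calls were lost in 9 and 7 of the 12 fits that left out 1 mouse. Tsr1 and Rrp12 passed in neither kind.

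The large subunit factors had 4 of 11 genes higher in footprints (median 0.21) and 3 in mRNA (median 0.57) under 5+3 on the BCAA-free diet. Pes1, Bop1 and Wdr12 form the PeBoW complex, which is required to process the large subunit precursor. Wdr12 (chr1:60071361-60098500) had 90.8, 87.8, 90.3, 80.3 and 86.0 footprint CPM with vehicle and 100.0 to 116 CPM (median 108) with 5+3 on the BCAA-free diet. In the AA mice it had 73.4, 80.1, 83.9, 79.8 and 83.6 CPM with vehicle and 71.9, 64.8, 82.2 and 79.4 CPM with 5+3. Wdr12 was thus higher in the BCAA-free 5+3 mice than in any other mouse, with a rise of 0.31 (SE 0.074, adjusted p = 0.0045) on the BCAA-free diet and a log2 change of -0.11 on the AA diet. Its mRNA rose by 0.71 (SE 0.190, adjusted p = 0.0276), from 149.5 to 209 CPM with vehicle to 229 to 394 CPM with 5+3.

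Pes1 followed Wdr12 in both kinds. It had 114, 126, 126, 117 and 116 footprint CPM with vehicle and 131 to 157 CPM with 5+3, a rise of 0.26 (adjusted p = 0.0198), and rose by 0.83 in mRNA (adjusted p = 0.0262). Bop1, the third partner, had changes of 0.23 in footprints and 0.61 in mRNA that did not pass. Nop16 rose by 0.43 and Rrs1, which brings the 5S particle into the large subunit precursor, by 0.29 in footprints (adjusted p = 0.0148 and 0.0175), and Rrp1 rose by 0.57 in mRNA (adjusted p = 0.0371).

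Rises in the 2 kinds of library overlapped in part. On the BCAA-free diet 7 genes rose in both (Ncl, Nolc1, Mybbp1a, Rrn3, Wdr43, Pes1 and Wdr12), which is 50% of the mRNA rises and 46.7% of the footprint rises. The log2 change had the same sign in both kinds for 37 of the 49 genes. The matching shares over all genes were not computed, so whether this overlap is unusual was not tested. For each of the 7 genes called in both kinds the log2 change was larger in mRNA than in footprints. Mice of a group also differed more in mRNA: the median log2 level of the 49 genes had an SD of 0.27, against 0.12 in footprints. A gene thus tended to need a larger change to pass in mRNA, and this order was partly set by the selection.

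**Figure D4:**
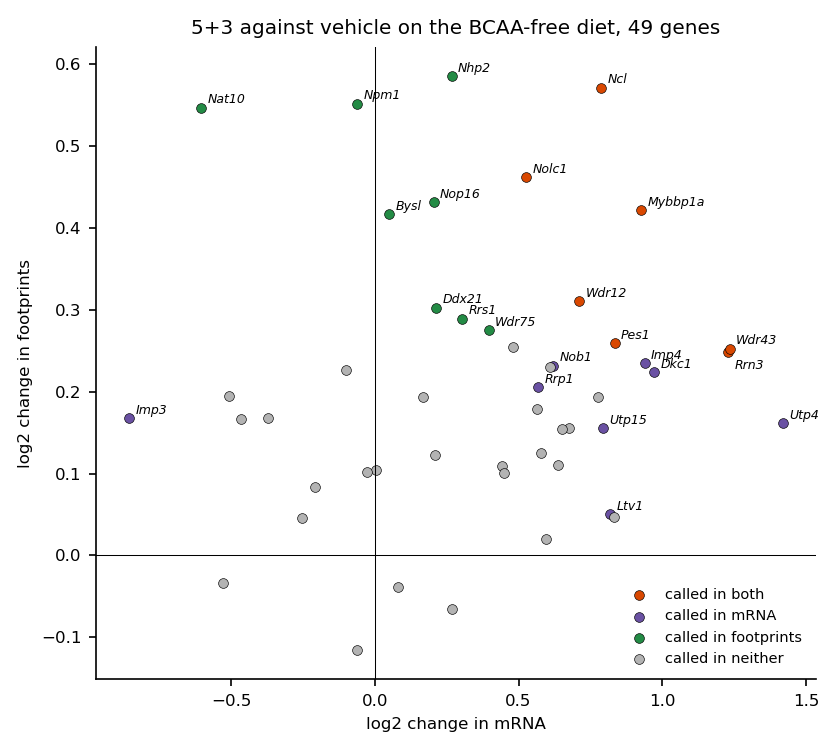
Log2 change in mRNA (x axis) and footprints (y axis) under 5+3 against vehicle on the BCAA-free diet for each of the 49 genes, coloured by where the gene passed. The 7 genes called in both lie at the upper right, while Nat10, Npm1 and Nhp2 are high on the footprint axis with mRNA changes of -0.61, -0.06 and 0.27.

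The direct comparison of the diets under 5+3 gave 10 genes higher and 2 lower in footprints on the BCAA-free diet. Of all genes 28.3% passed in this comparison, 12.5% higher and 15.8% lower. The called share of the 49 genes was not above that of all genes, though a larger part was higher and a smaller part lower. The median was 0.11 over the 49 genes and 0.00 over all genes. The higher genes were Wdr12 (0.53, adjusted p = 3.5e-05), Nhp2 (0.62, adjusted p = 0.000276), Ncl (0.49, adjusted p = 0.00105), Pes1 (0.39, adjusted p = 0.00115), Wdr43 (0.41, adjusted p = 0.0014), Nop16, Npm1, Mybbp1a, Ddx21 and Utp4. For Ncl, Nhp2, Pes1 and Wdr12 the 7 BCAA-free mice lay above the 4 AA mice, a count near the 7.29% of all genes for which this was so. The lower genes were Heatr1, a scaffold of the processome (-0.30, adjusted p = 0.0468), and Noc3l, a large subunit factor (-0.45, adjusted p = 0.0322), and in both the groups overlapped. Heatr1 had 141, 143, 184 and 139.8 CPM on the AA diet and 100.1 to 164 CPM on the BCAA-free diet, and its call was lost without the mouse at 184 CPM, AA 5+3 replicate 3, and in 7 of 11 fits in all. Without the 4 mice 13 genes were higher and 0 lower, 10 of them among the 12. The count was 6 without AA 5+3 replicate 1 and 7 without replicate 2. Erythroid markers differed in this comparison as well. They summed to 98.4 to 155 footprint CPM in AA 5+3 mice and 9.34 to 46.8 CPM in BCAA-free 5+3 mice, and 37.0 to 170 and 4.12 to 29.5 CPM in mRNA. In footprints 5 of 7 erythroid and 6 of 10 neutrophil markers were lower on the BCAA-free diet. Which cells expressed these markers was not tested, nor was their part in the differences of the 49 genes.

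In mRNA 0 of the 49 genes passed between the diets under 5+3 in edgeR, where 1.24% of all genes passed, although 22 had an unadjusted p under 0.05 and 42 were positive, against 13% and 49.2% of all genes. The median was 0.43 over the 49 genes and -0.01 over all genes. Utp4 (1.15) and Wdr43 (1.07) were highest, and Bysl (-0.27) was lowest. DESeq2 called 10 genes higher, and without the 4 mice edgeR called 4, among them Gnl3 (0.86, adjusted p = 0.0191), Wdr43 (1.20, adjusted p = 0.0330) and Ncl (0.84, adjusted p = 0.0429). The groups did not overlap for Ncl, Nop14, Wdr12 and Rrp1, all higher on the BCAA-free diet, where 2.26% of all genes were higher without overlap.

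Under vehicle the diets gave no called member. In footprints 0 of 49 passed in edgeR and in DESeq2 against 2.04% of all genes (0.642% higher and 1.4% lower), 6 had an unadjusted p under 0.05 (17.5% of all genes) and the median was 0.01, with values from -0.27 (Ltv1) to 0.33 (Nop10). In mRNA 0 of 49 passed with either tool against 0% of all genes, 5 had an unadjusted p under 0.05 (11.2% of all genes) and the median was -0.05, with values from -0.71 (Mphosph10) to 0.84 (Nop10). Imp3 mRNA did not overlap between the diets under vehicle, at 102, 57.3, 97.3, 49.4 and 85.6 CPM on the AA diet and 103 to 168 CPM on the BCAA-free diet, a log2 change of 0.74 that did not pass. Of all genes 0.871% were higher without overlap there.

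The interaction asks whether the change under 5+3 differed between the diets. In footprints it passed for 3 of the 49 genes, a count near the 7.09% of all genes that passed (3.29% higher and 3.8% lower). All 3 had a larger change on the BCAA-free diet. They were Ncl (0.64, SE 0.145, adjusted p = 0.0109), Wdr12 (0.42, SE 0.112, adjusted p = 0.0265) and Nhp2 (0.56, SE 0.161, adjusted p = 0.0345). The median was 0.11 over the 49 genes and -0.02 over all genes, with 10 unadjusted p under 0.05 (23.6% of all genes). Without the 4 mice 0 passed, at log2 values of 0.64 (adjusted p = 0.0973), 0.48 (0.106) and 0.59 (0.130) in this order. Of the 21 fits that left out 1 mouse Ncl lost its call in 0, Wdr12 in 2 (without AA 5+3 replicate 1 or 2) and Nhp2 in 4 (without AA vehicle replicate 5, AA 5+3 replicate 1 or 3, or BCAA-free vehicle replicate 5). In mRNA 0 of 49 passed in edgeR against 0.0758% of all genes (0.0237% higher and 0.0521% lower), 17 had an unadjusted p under 0.05 (12.1% of all genes), 37 were positive (51.8% of all genes) with a median of 0.47, and DESeq2 called 1. The mRNA values ran from -0.93 (Nop10) to 1.80 (Utp4). The footprint count was 1 without AA 5+3 replicate 1 and 6 without BCAA-free 5+3 replicate 3. The interaction and the simple comparisons share the same mice, so their values are not separate evidence.

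Translational efficiency was measured as footprints relative to mRNA in the same mouse. In the AA vehicle mice the 49 genes covered a wide range of it. Nhp2 had a mean of -3.03 ± 0.43 on the log2 scale (SD, n = 5) relative to the mouse's median gene, lower than all but 3.09% of the 12097 genes. Nop10 stood at the 6.97 percentile, Nop16 at 7.32 and Bysl at 8.59. Utp20 (80.7), Mybbp1a (79.9), Ddx21 (79.6), Heatr1 (79.1) and Ncl (77.1) had the highest percentiles. The ratio also depends on how much of a transcript is coding, since Smart-seq2 covers whole transcripts, and on how reads of copies were assigned. With group means taken out, mRNA and footprint levels of the same mouse had a median correlation of only 0.11 over 21 mice. The mRNA library was closest to the footprint library of its own mouse for 8 of them.

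Chemotherapy on the BCAA-free diet changed the efficiency of 4 members, 3 higher and 1 lower, where 7.45% of all genes passed (3.51% higher and 3.94% lower). The median was -0.14 over the 49 genes and -0.11 over all genes, so the members as a group did not stand away from the rest. Nat10 had values of 0.19, 1.03, 0.43, 0.24 and -0.81 with vehicle and 1.31 to 1.88 with 5+3, a rise of 1.23 (SE 0.232, adjusted p = 0.0233). Imp3 had -2.20, -1.86, -1.60, -1.71 and -2.24 with vehicle and -1.41 to 0.10 with 5+3, a rise of 1.16 (SE 0.275, adjusted p = 0.0284). These values did not overlap between the groups for either gene, and 1.96% of all genes were higher without overlap. Utp20, a scaffold of the processome, had 2.14, 1.93, 1.97, 2.40 and 2.17 with vehicle and 2.86 to 3.74 with 5+3, a rise of 0.82 (SE 0.203, adjusted p = 0.0317). Utp4 had 0.98, 0.92, 1.27, 0.87 and 0.93 with vehicle and -0.35 to 0.86 with 5+3 and fell by 1.03 (SE 0.311, adjusted p = 0.0474).

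The efficiency values of Imp3 and Utp4 follow their mRNA, which moved by -0.86 and 1.42 while their footprints moved by 0.17 and 0.16. Without the 4 mice 0 of the 49 genes passed for efficiency (adjusted p = 0.331 for each of the 4), at log2 values of 1.15, 1.02, 0.81 and -1.15. Leaving out 1 mouse gave counts from 0 (without BCAA-free 5+3 replicate 5) to 9 (without replicate 7). Of the 12 fits Nat10 was lost in 1, Imp3 in 6, Utp20 in 7 and Utp4 in 8. In the other comparisons 0 of 49 passed in edgeR and in DESeq2. Unadjusted p under 0.05 were 0 for chemotherapy on the AA diet, 4 and 5 for the diets under vehicle and under 5+3, and 6 for the interaction, against 2.75%, 8.95%, 7.29% and 11.8% of all genes. Of all genes 0%, 0%, 0.00827% and 0.00827% passed there.

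**Figure D5:**
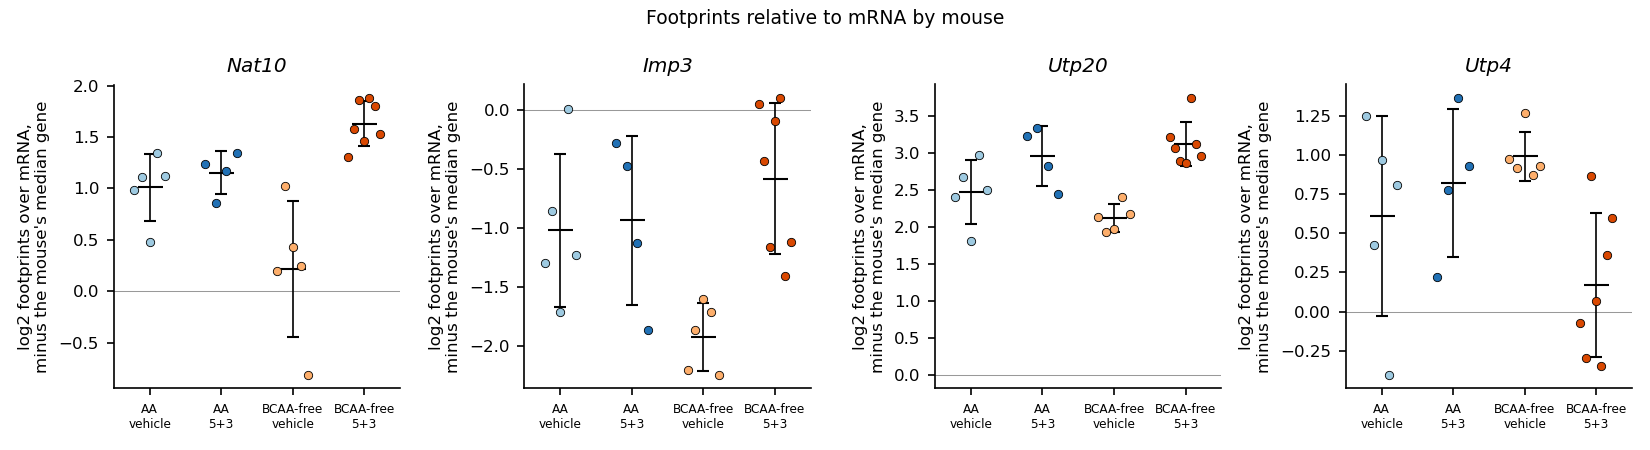
Footprints relative to mRNA, on the log2 scale and relative to the median gene of the same mouse, for the 4 genes whose efficiency changed under 5+3 on the BCAA-free diet. Points are mice and bars the mean ± SD. Nat10, Imp3 and Utp20 are higher and Utp4 is lower with 5+3 than with vehicle on that diet, with no overlap.

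Other genes of the pathway were read from lists that hold none of the 49, and their counts stand beside the shares of all genes called in footprints (8.76% higher, 11.9% lower) and mRNA (4.33% and 4.23%). Under 5+3 on the BCAA-free diet, 14 of 49 other large subunit factors rose in footprints and 0 fell (median 0.19), led by Nle1 (0.83), Nmd3 (0.47), the adaptor that exports the large subunit, and the GTPase Lsg1 (0.40), which releases Nmd3. In mRNA 10 rose and 1 fell (median 0.27), with Nmd3 at 1.07, Wdr18 at 1.29, Tma16 at 1.05 and Urb1 at -1.41. Of 41 other small subunit factors 8 rose and 1 fell in footprints (median 0.15), among them Pno1 (0.48), Tbl3 (0.41) and the kinase Riok2 (0.35). In mRNA 6 rose and 0 fell (median 0.23), such as Nop9 (1.05), Rcl1 (1.14) and Nol11 (1.16). The list of the RNA exosome, which trims precursor rRNA, also holds cofactors and the separate nuclease Xrn2. It had 3 of 15 genes higher in footprints, such as Exosc2 (0.41), and 2 higher in mRNA, Dis3 (0.93) and Mtrex (0.98). Of 12 other snoRNP assembly factors 2 rose and 1 fell in footprints, Nufip1 (0.32), Ruvbl2 (0.26) and Pih1d1 (-0.38), which at this size of list is near the shares of all genes.

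Other RNA polymerase I genes resembled the 5 members in their low counts. Of 16 genes 0 rose and 1 fell in footprints (Taf1d, -0.79; median 0.01), and 1 rose in mRNA (Taf1b, 1.32; median -0.14). Host genes of small nucleolar RNAs had 0 higher and 2 lower of 11 in mRNA, Gas5 (-1.22) and Zfas1 (-1.15), and all 11 values were negative (median -0.69). In footprints 1 of 10 fell, Snhg5 (-1.15). Several of these are non-coding transcripts.

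The list of 16 genes of the MYC network and of mTORC1 mixes drivers of the pathway with genes that oppose MYC. Counts over it therefore give no direction for the drive on the pathway, and its part in the changes was not tested. In footprints 0 rose and 6 fell under 5+3 on the BCAA-free diet (median -0.26), including Mxd4 (-0.86) and Mxd1 (-0.67), which oppose MYC, and the shared partner Max (-0.52). Myc itself had log2 changes of -0.10 in footprints and 0.62 in mRNA that did not pass. In mRNA 0 rose and 2 fell, Mxd4 (-0.90) and Mga (-0.92). Genes of nucleolar stress and p53 had 5 of 12 higher and 1 lower in footprints, among them the cell cycle inhibitor Cdkn1a (1.45) and Ccng1 (0.57), with Trp53 lower (-0.26). In mRNA 3 of 13 rose, Phlda3 (2.75), Ccng1 (1.22) and Cdkn1a (1.13), and Mdm4 fell (-0.62).

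Between the diets under 5+3, where 12.5% of all genes were higher and 15.8% lower in footprints, other large subunit factors had 12 of 49 higher and 3 lower in footprints, led by Ppan (0.58), Nmd3 (0.59) and Lsg1 (0.39). Other small subunit factors had 6 of 41 higher and 2 lower, with Riok2 at 0.68 and Dhx37 at -0.56, a count of higher genes near the share of all genes. Of the exosome list 7 of 15 genes were higher and 2 lower, with Exosc1 (0.56) and the separate nuclease Xrn2 (0.44) among the higher. Of the MYC and mTORC1 genes 2 of 16 were higher and 4 lower, with the kinase Mtor (-0.52) and its partner Rptor (-0.58) among the lower. The interaction in footprints (3.29% of all genes higher and 3.8% lower) passed for Ppan (0.55), Nmd3 (0.51), Nsa2 (0.60) and Urb1 (-0.58) of the large subunit list, and for Riok2 (0.59) and Wdr3 (-0.39) of the small subunit list.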

How the data were processed

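The deposited tables hold whole-number read counts per gene, made by the authors with cutadapt, Bowtie2, STAR, SAMtools and featureCounts on GRCm38 (mm10), per the submitters' processing notes. For the tool versions, the annotation and the strand of counting, the answer is not given in the sources used here. If reads were counted without strand, reads of antisense partners cannot be told apart. Sorted cells were lysed with cycloheximide; part of the lysate went to Smart-seq2 and the rest to RNase I and a sucrose cushion, per the labels' protocols. Total counts were 30996200 to 70437713 (mRNA) and 2697092 to 8863472 (footprints).

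Genes passing filterByExpr (minimum count 10, minimum total 15) were fitted over all 4 groups with TMM scaling and edgeR 4.0.16's quasi-likelihood test (R 4.3.3, limma 3.58.1), p-values being Benjamini-Hochberg adjusted over all genes tested. CPM uses the scaled library size. Efficiency was tested as the kind of library by group interaction in 1 fit that blocks on the mouse, and its levels used a pseudocount of 0.5 CPM. Alternatives were DESeq2 1.42.0, median-ratio scaling, no filter, only the compared groups, a replicate block, leaving out each mouse and leaving out 4 mice, the last chosen for footprints after seeing the data. The fits were also run on simulated counts with known changes, a fixed spread for each kind of library and no effect of the mouse. That setting is simpler than the real libraries, so it does not vouch for the calls.

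The members and lists were chosen with earlier results of these data known. Named genes were a panel of 12 (Ncl, Npm1, Fbl, Nop56, Dkc1, Bop1, Polr1a, Polr1b, Ubtf, Rrn3, Nolc1 and Gnl3), up to 8 called members and the 2 highest and 2 lowest values per comparison, and up to 3 called genes of each list. Other called members were also named, chosen after their values were seen. Symbols matched 99.4% of gene identifiers. In all 47 same-group pairs of each kind, the libraries differed beyond sampling noise. Replicate numbers did not pair the mice: deviations of same-numbered mice had a median correlation of 0.06 in mRNA (lowest -0.48) and -0.01 in footprints over 27 pairs. Labels call the samples biological replicates.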

Additional observations from a re-analysis of the deposited data

Results flagged for a closer look

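The change under 5+3 differed between the diets in footprints of Ncl (interaction of 0.64 on the log2 scale), Nhp2 (0.56) and Wdr12 (0.42), each by edgeR's test of the interaction over all genes. The count is near the 7.09% of all genes that passed. All these calls were lost without the 4 mice with the fewest genes detected in mRNA, and with a replicate block Nhp2 and Wdr12 lost theirs.

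In 12 of 280 groups of values checked, for 34 named members, 1 mouse lay far from the others of its group, where chance alone would mark about 1 in 20, or 14. In mRNA of the AA 5+3 group, replicate 4 was highest for Nop10 (1141 CPM, the next mouse at 535) and Nhp2 (735 CPM, next at 492.7) and lowest for Rrn3 (24.6 CPM, next at 37.4), and replicate 3 was highest for Ncl (651 CPM, next at 576). In mRNA of the BCAA-free vehicle group, replicate 5 was lowest for Rrn3 (5.57 CPM, next at 21.7) and highest for Polr1b (75.9 CPM, next at 34.7). Replicate 6 of the BCAA-free 5+3 group was highest for Fbl mRNA (248 CPM, next at 183).

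In footprints, AA 5+3 replicate 3 was highest for Heatr1 (184 CPM, next at 143) and Polr1a (79.0 CPM, next at 65.7). AA vehicle replicate 5 was lowest for Fbl (127 CPM, next at 140.4) and replicate 1 lowest for Rrs1 (48.1 CPM, next at 51.3). BCAA-free vehicle replicate 5 was highest for Noc3l (28.3 CPM, next at 22.2).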

How the results depend on the processing

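None of the named members' called values changed sign under the alternatives run. Counts of called members moved as follows, and the cause was not tested. For 5+3 on the BCAA-free diet, the 15 mRNA calls became 9 with no filter, 6 with only the compared groups and 0 without the 4 mice. Leaving out 1 mouse gave 4 to 21. The 15 footprint calls became 4 without the 4 mice and 14 to 18 without 1 mouse, and the 4 efficiency calls became 8 in DESeq2, 0 without the 4 mice and 0 to 9 without 1 mouse. For 5+3 on the AA diet, the 2 footprint calls became 4 in DESeq2, 4 with no filter, 1 without the 4 mice and 0 to 4 without 1 mouse. Between the diets under 5+3, the 0 mRNA calls became 10 in DESeq2, 4 without the 4 mice and 0 to 4 without 1 mouse, with calls only without BCAA-free 5+3 replicate 3 (4) or 7 (3), and the 12 footprint calls became 7 with only the compared groups and 6 to 12 without 1 mouse. The interaction had 1 mRNA call in DESeq2, and its 3 footprint calls became 5 in DESeq2, 0 without the 4 mice and 1 to 6 without 1 mouse.

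With a replicate block, footprint calls became 1 for 5+3 on the AA diet, 13 for 5+3 on the BCAA-free diet, 7 between the diets under 5+3 and 1 for the interaction, and mRNA calls for 5+3 on the BCAA-free diet became 22, all 15 among them. The replicate block left the other 5 counts at 0. Efficiency already has each mouse as its own block, and gave 5 calls without it.

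Footprint libraries were the shallower kind, and the lowest count of a member in 1 library was 33 there. The 4 mice leave 2 BCAA-free vehicle mice, so calls lost without them also rest on fewer samples.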
